A study of Homo sapiens with 32 samples.

Results

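The 10 genes described here encode AP-1 and EGR factors of the immediate early response. They are JUN, JUNB, JUND, FOS, FOSB, FOSL2, EGR1, EGR2, EGR3 and ATF3, chosen by name, and they are 10 of the 23073 genes in the deposited table. Of them, 6 (JUN, JUNB, JUND, FOSL2, EGR1 and ATF3) reached 1 FPKM (fragments per transcript length and library size) in at least 2 libraries and were tested, among 11890 genes that did so. The other 4 (FOS, FOSB, EGR2 and EGR3) did not pass that filter and are given by their levels. KDM1A, a demethylase of histone H3 lysine 4 that acts as a corepressor, was inhibited in Kasumi-1 and SKNO-1, a pair of lines grown from human acute myeloid leukaemia, and total RNA, per the labels, was sequenced in 32 libraries.

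The groups were RN-1, an irreversible KDM1A inhibitor, GSK690, a reversible one, GSK690*, the isomer of GSK690 that is described as inactive, and the DMSO vehicle. Each was sampled at 24 and 72 h in each line, with 2 biological replicates per group, which gives 4 sets of 8 libraries. Per the labels, RN-1, GSK690 and GSK690* were used at 1 µM and the vehicle at 0.1%, Kasumi-1 grew with 20% serum, and SKNO-1 grew with 10% serum and 10 ng/mL GM-CSF, so a difference between the lines cannot be told apart from their media. The titles of the later SKNO-1 libraries give 72 h, while the protocol gives 4 days for that line. Both lines carry the RUNX1-RUNX1T1 fusion of t(8;21) leukaemia, and RUNX1T1, which marks it, was above 0 in all libraries. Both are long-established cultures, and no primary cells were included. In the text, "inhibitors" means RN-1 and GSK690 together (4 libraries per set) and "controls" means DMSO and GSK690* together (4 libraries per set).

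AP-1 is a family of leucine zipper dimers in which a JUN protein pairs with another JUN protein or with a FOS or ATF protein, and the dimer binds a short palindrome in enhancers and promoters. FOS, FOSB, JUN, EGR1 and ATF3 are classic immediate early genes: growth factors, phorbol esters or stress switch on their transcription within minutes through MAP kinases, serum response factor and preformed AP-1, and the RNAs decay quickly. In myeloid cells, AP-1 and EGR1 act with PU.1 in monocyte and macrophage differentiation, and EGR2 and EGR3 are zinc finger relatives of EGR1.

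The promoters of JUN and FOSL2, the members that rose with the inhibitors, and of EGR1, which did not pass the test in any set, are shown first. The sequences are the 250 bases before the start site in RefSeq's GRCh38.p14, 5′ to 3′ on the gene's own strand, and the capitals mark every match to the motifs searched: AP-1 (TGANTCA), CRE-type (TGACNTCA), EGR (GCGNGGGCG), RUNX (TGNGGT), the CArG box bound by serum response factor, and the TATA box (spelled TATAAA), each on both strands. JUN lies at chr1:58784048-58784297 (minus strand), FOSL2 at chr2:28392608-28392857 (plus strand) and EGR1 at chr5:138465229-138465478 (plus strand).
JUN: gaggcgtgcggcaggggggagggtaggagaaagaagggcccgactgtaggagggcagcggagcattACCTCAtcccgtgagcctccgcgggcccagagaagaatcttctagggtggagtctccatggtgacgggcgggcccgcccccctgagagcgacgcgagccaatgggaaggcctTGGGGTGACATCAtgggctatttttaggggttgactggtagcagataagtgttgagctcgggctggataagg
FOSL2: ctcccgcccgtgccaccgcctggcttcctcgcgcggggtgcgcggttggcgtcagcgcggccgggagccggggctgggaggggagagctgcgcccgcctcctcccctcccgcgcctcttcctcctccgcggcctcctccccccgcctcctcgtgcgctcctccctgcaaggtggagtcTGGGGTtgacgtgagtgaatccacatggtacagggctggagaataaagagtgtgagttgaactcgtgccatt
EGR1: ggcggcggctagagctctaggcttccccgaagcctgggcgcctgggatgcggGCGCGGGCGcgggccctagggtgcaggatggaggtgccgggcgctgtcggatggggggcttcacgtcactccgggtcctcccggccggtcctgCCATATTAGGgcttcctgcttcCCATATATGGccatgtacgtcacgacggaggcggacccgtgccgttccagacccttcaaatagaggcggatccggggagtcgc
The JUN window held the CRE-type element TGACATCA, 67 to 60 bases before the start, which is known as a site of autoregulation by JUN and ATF2, and 2 RUNX matches, of which 1 shares a base with that element. The FOSL2 window held 1 RUNX match, 72 to 67 bases before the start. The EGR1 window held 2 CArG boxes, 105 to 96 and 83 to 74 bases before the start, and 1 EGR match at 198 to 190. Among 35116 windows of the same length in the table, 6.87% held the CRE-type motif, 37.7% the RUNX motif, 1.16% a CArG box, 8.41% the EGR motif, 6.57% the AP-1 motif and 10.7% the TATA motif. Of the 10 genes, 9 were matched in the table, with 12 start sites. ATF3 and JUND also held a CRE-type match. RUNX matches were found too in 1 of the 2 ATF3 windows, 65 to 60 bases before the start, and in 2 of the 3 EGR2 windows, so the motif was not limited to the members that rose. JUNB, FOS, FOSB and the second ATF3 start site held the TATA motif, and 1 of the EGR2 windows held a CArG box. These matches describe letters in a window and do not show binding.

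Libraries of the same group agreed closely across genes, with Pearson r of 0.986 to 0.996 between replicates. The files give no counts, and the depth behind each FPKM value is therefore unknown. The authors' own sample table gives the opposite cell line for 16 of the 32 titles, those at 72 h, and the labels were followed: by them, the later libraries correlated with the 24 h libraries of the same line at a mean r of 0.974 to 0.986, and with the opposite line at 0.848 to 0.870. The library names begin with 1 prefix at 24 h and with others at 72 h, so time and prefix cannot be told apart. Of the 10 markers of adherent, lymphoid and erythroid cells, HBB and COL1A2 were listed at 0 in all libraries, and EPCAM reached 83.5 FPKM in Kasumi-1. The labels call the replicates biological without saying whether they were separate cultures, and the p-values measure the spread between these libraries.

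**Figure D1:**
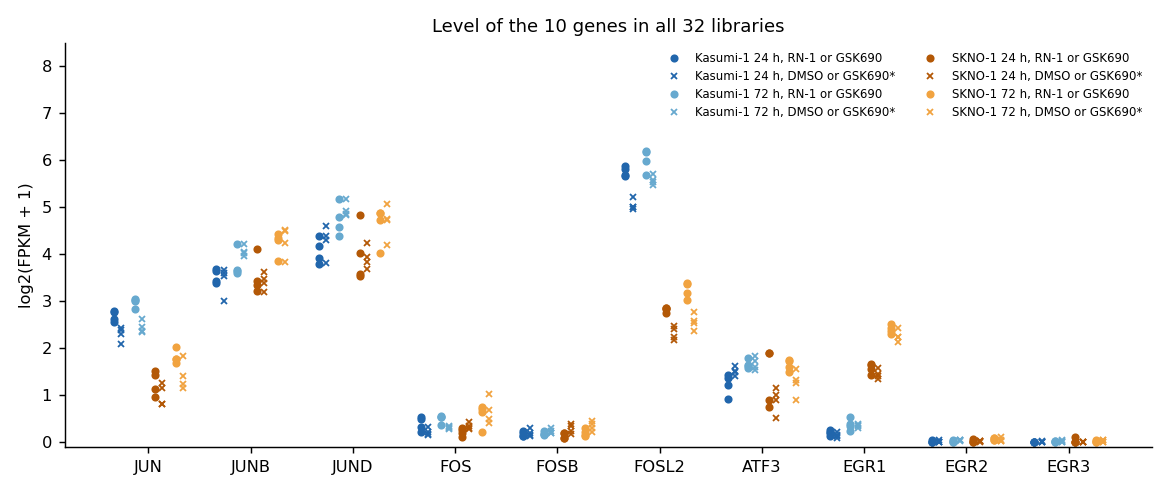
Level of each of the 10 genes in all 32 libraries, as log2(FPKM + 1) on the y axis, with dots for RN-1 or GSK690 libraries, crosses for DMSO or GSK690* libraries, and a colour for each set of cell line and time. FOSL2 stands high in Kasumi-1 and low in SKNO-1, EGR1 shows the opposite order, JUNB and JUND are high in both lines, and EGR2 and EGR3 lie near 0.

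Without KDM1A inhibition, the order of these factors by level differed between the lines. In Kasumi-1 controls at 24 h, FOSL2, a FOS relative that needs a JUN partner, was the most abundant with 32.2 ± 2.83 FPKM (SD, n = 4), followed by JUND with 18.8 ± 4.31, JUNB with 10.1 ± 2.08, JUN with 3.96 ± 0.523 and ATF3 with 1.85 ± 0.174 FPKM. These 5 neighbours in the order did not overlap with each other. FOS at 0.163 ± 0.0592, FOSB at 0.148 ± 0.0628 and EGR1 at 0.105 ± 0.0419 FPKM overlapped with their neighbours, and EGR2 and EGR3 were at or under 0.0279 FPKM in every control library of that set. In SKNO-1 controls at 24 h, JUND came first with 14.3 ± 2.57 FPKM, then JUNB with 9.76 ± 1.33, FOSL2 with 4.03 ± 0.483, EGR1 with 1.74 ± 0.197, JUN with 1.04 ± 0.326 and ATF3 with 0.883 ± 0.338 FPKM (SD, n = 4). JUN and ATF3 overlapped there, and the 4 genes above JUN did not overlap with their neighbours. FOS at 0.262 ± 0.0619 and FOSB at 0.217 ± 0.0803 FPKM overlapped. At 72 h the first 5 genes kept this order in Kasumi-1 controls, and in SKNO-1 controls the first 6 did, with overlaps between JUND and JUNB, between FOSL2 and EGR1, and from JUN through ATF3 and FOS to FOSB.

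Kasumi-1 controls stood above SKNO-1 controls for FOSL2 and JUN at both times, and their EGR1 levels were lower than in SKNO-1 controls. FOSL2 was 2.72 higher in Kasumi-1 on the log2(FPKM + 1) scale at 24 h (SE 0.097, limma adjusted p = 1.62e-16) and 3.02 higher at 72 h (SE 0.097, limma adjusted p = 2.08e-17). JUN, the strongest activator among the JUN proteins, was 1.29 higher at 24 h (limma adjusted p = 1.60e-08) and 1.03 higher at 72 h (limma adjusted p = 4.39e-07). EGR1 lay between 0.0586 and 0.158 FPKM in Kasumi-1 controls and between 1.55 and 2.01 FPKM in SKNO-1 controls at 24 h, a log2 difference of -1.31, and the difference at 72 h was -1.91. EGR1 reached 1 FPKM in all 16 SKNO-1 libraries and in 0 of the Kasumi-1 libraries, so it passed the filter only through the line where it is high, and its difference between the lines is a description with no test. ATF3, a stress-induced repressor of the same zipper family, was higher by 0.61 at 24 h (limma adjusted p = 0.0138, but 0.0883 without the second SKNO-1 DMSO library) and did not pass at 72 h (0.41, limma adjusted p = 0.0847, but 0.0210 with a term for the replicate number). JUNB and JUND did not pass at either time. Of the 5 members other than EGR1, 3 passed at 24 h and 2 at 72 h, where 69.1% and 70.8% of all tested genes passed.

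The inhibitors raised FOSL2 in all 4 sets. In Kasumi-1 at 24 h, FOSL2 had 50.7 and 57.7 FPKM with RN-1 and 49.9 and 55.2 FPKM with GSK690, against 31.2 and 31.2 FPKM with DMSO and 30.0 and 36.3 FPKM with GSK690*. All 4 inhibitor libraries were above all 4 controls. The log2 change was 0.71 (SE 0.097, 95% interval 0.51 to 0.91, limma adjusted p = 2.36e-05), which is larger than the spread between replicates. FOSL2, also known as FRA2, lies on chromosome 2 at 28615314 to 28640179 in the deposited hg19 annotation.

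In Kasumi-1 at 72 h, FOSL2 had 50.3 and 62.2 FPKM with RN-1 and 70.8 and 72.2 FPKM with GSK690, against 45.7 and 43.6 FPKM with DMSO and 46.5 and 51.5 FPKM with GSK690*. The lower RN-1 library fell below the higher GSK690* library, so the groups overlapped, and the GSK690 libraries were the highest of the set. The log2 change was 0.43 (SE 0.097, limma adjusted p = 0.00248).

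SKNO-1 started from a level several times lower and showed the same direction. At 24 h FOSL2 had 6.16 and 6.20 FPKM with RN-1 and 6.27 and 5.70 FPKM with GSK690, against 4.35 and 3.51 FPKM with DMSO and 4.52 and 3.73 FPKM with GSK690*. The inhibitor libraries all lay above the controls. The log2 change was 0.50 (SE 0.097, limma adjusted p = 0.00204), and a fit on these 8 libraries alone gave an adjusted p of 0.0675 by limma. At 72 h FOSL2 had 8.01 and 9.53 FPKM with RN-1 and 9.32 and 7.16 FPKM with GSK690, against 4.16 and 4.97 FPKM with DMSO and 5.81 and 4.80 FPKM with GSK690*. Again no inhibitor library overlapped with a control. The log2 change was 0.68 (SE 0.097, limma adjusted p = 4.60e-05). In that set the library names carry 2 prefixes: the log2 difference was 0.80 within the first (1 library against 1) and 0.64 within the second (3 against 3).

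**Figure D2:**
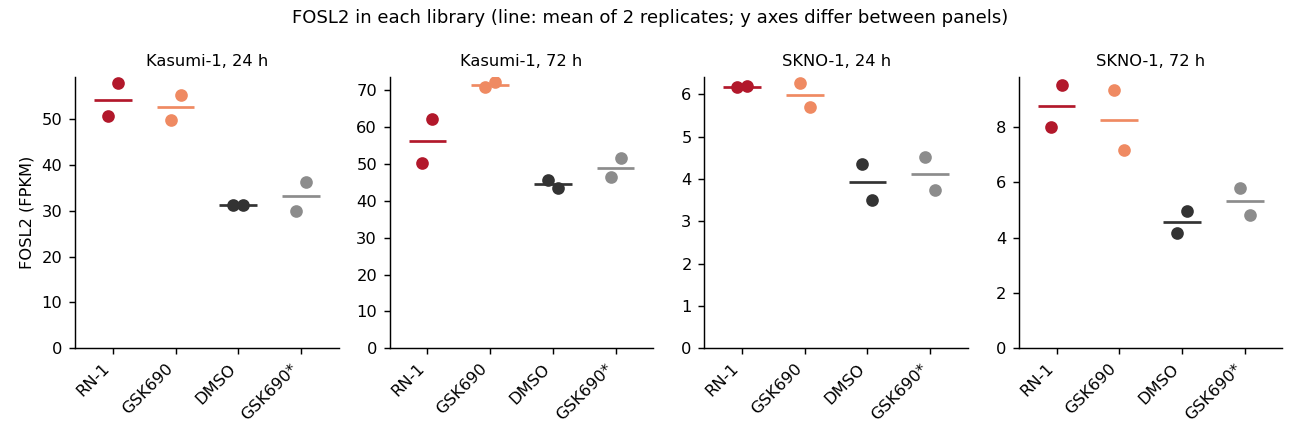
FOSL2 in FPKM (y axis) in each library of the 4 sets, with RN-1 and GSK690 left of DMSO and GSK690*, a dot per library and a line at the mean of 2 replicates. The inhibitor libraries lie above all controls in 3 sets, and in Kasumi-1 at 72 h the lower RN-1 library, at 50.3 FPKM, overlaps with the higher GSK690* library, at 51.5 FPKM.

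JUN (chromosome 1, 59246464 to 59249785 in hg19) rose in Kasumi-1 at both times. At 24 h it had 4.87 and 5.80 FPKM with RN-1 and 5.93 and 5.19 FPKM with GSK690, against 3.97 and 4.23 FPKM with DMSO and 3.22 and 4.42 FPKM with GSK690*. The inhibitor libraries were all above the controls, by a margin smaller than the range within either group. The log2 change was 0.38 (SE 0.133, limma adjusted p = 0.0454), a call that 7 of the 8 fits without 1 library did not keep (adjusted p of 0.0527 to 0.202 in those 7; without the second GSK690* library it was 0.0299). At 72 h JUN had 7.19 and 6.09 FPKM with RN-1 and 7.0 and 7.25 FPKM with GSK690, against 4.18 and 4.48 FPKM with DMSO and 4.08 and 5.15 FPKM with GSK690*. The groups again did not overlap. The log2 change was 0.53 (SE 0.133, limma adjusted p = 0.00564), and it passed in all 8 fits without 1 library.

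In SKNO-1, JUN did not pass in the fit of group means, and at 72 h it passed once a term for the replicate number was added. At 24 h it had 1.85 and 1.20 FPKM with RN-1 and 1.70 and 0.944 FPKM with GSK690, against 1.22 and 0.760 FPKM with DMSO and 1.4 and 0.764 FPKM with GSK690*, with the groups overlapping (log2 difference 0.25, limma adjusted p = 0.263). Within the replicate numbers the difference was 0.26 in the first and 0.23 in the second. At 72 h it had 2.41 and 2.22 FPKM with RN-1 and 3.04 and 2.39 FPKM with GSK690, against 1.24 and 1.36 FPKM with DMSO and 2.57 and 1.67 FPKM with GSK690*. The first GSK690* library lay among the inhibitor libraries, and the log2 difference of 0.39 had a limma adjusted p of 0.0594. The difference was 0.39 within the first replicate number and 0.40 within the second, and the fit with the replicate term gave a limma adjusted p of 0.00488. Without that library the adjusted p was 0.0352, and without GSK690* among the controls it was 0.0220. By prefix of the library names, the log2 difference of JUN in SKNO-1 at 72 h was 0.61 within the first (1 library against 1) and 0.32 within the second (3 against 3). The first replicate number of that set holds libraries of both prefixes. The difference between the lines in the change of JUN was 0.13 on the log2 scale at each time (95% interval -0.26 to 0.52 at both). The log2(FPKM + 1) scale understates changes at the lower JUN levels of SKNO-1, where controls averaged 1.04 FPKM against 3.96 in Kasumi-1 at 24 h. A call in Kasumi-1 and none in SKNO-1 therefore does not show that the lines responded differently.

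**Figure D3:**
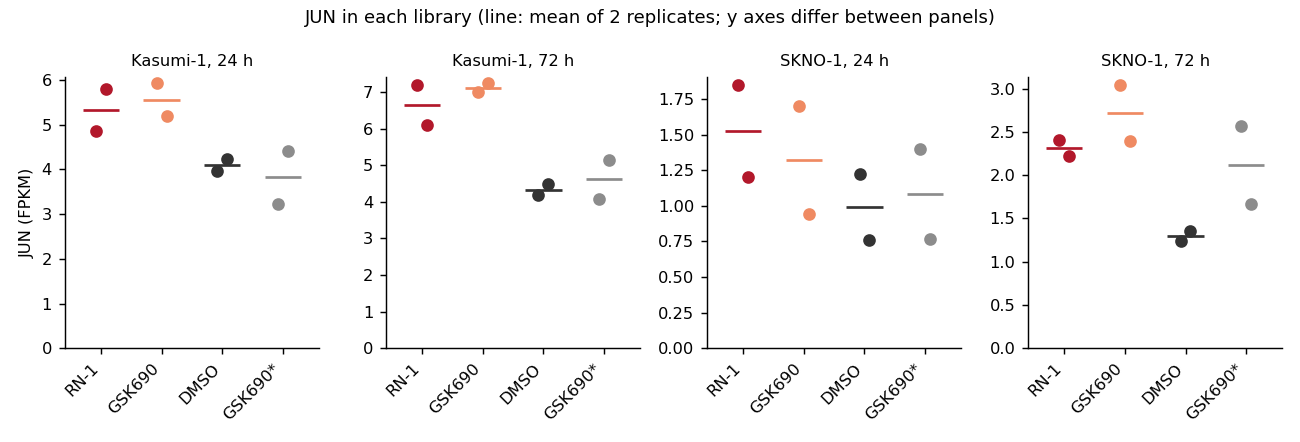
JUN in FPKM (y axis) in each library of the 4 sets, with RN-1 and GSK690 left of DMSO and GSK690*, a dot per library and a line at the mean of 2 replicates. In Kasumi-1 the inhibitor libraries lie above the controls at both times, and in SKNO-1 at 72 h 1 GSK690* library, at 2.57 FPKM, lies among the inhibitor libraries.

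Averaged over the 4 sets, the log2 change with the inhibitors was 0.58 for FOSL2 (SE 0.048, limma adjusted p = 4.37e-09) and 0.39 for JUN (SE 0.066, limma adjusted p = 6.44e-05), with 22.7% of all tested genes rising, 28.1% falling and 50.7% passing in that average. EGR1 averaged 0.082 and did not pass (unadjusted p = 0.04997, limma adjusted p = 0.0892), though it did in 2 of 32 fits without 1 library (limma adjusted p of 0.0324 and 0.0492). ATF3 averaged 0.14 (limma adjusted p = 0.274) and passed in 1 of those 32 fits (0.0495). Of the 6 tested members, 2 rose in Kasumi-1 at 24 h, where 9.69% of all tested genes rose, 11.2% fell and 20.9% passed in either direction. At 72 h in that line 2 rose again, JUN and FOSL2 as before, where 13% rose, 12.7% fell and 25.7% passed. In SKNO-1 FOSL2 alone of the 6 rose at each time, where 5.64% rose, 3.44% fell and 9.08% passed at 24 h, and 6.91% rose, 4.16% fell and 11.1% passed at 72 h. With the replicate term, the members called in Kasumi-1 at 24 h were again 2, where 31.4% of all tested genes passed, and those in SKNO-1 were 2 at 24 h (FOSL2 and ATF3) and 2 at 72 h (FOSL2 and JUN), where 19.4% and 22.8% passed. None of the 6 fell in any set by limma (0 of 24 tests at an unadjusted p under 0.05). The median change of the 6 was 0.067 at 24 h and 0.0053 at 72 h in Kasumi-1, and 0.18 and 0.26 in SKNO-1, beside -0.014, -0.017, -0.019 and -0.022 for all tested genes. Inhibitor libraries lay above all controls in 14.4%, 15.6%, 6.8% and 8.57% of tested genes in those sets. These are bulk cultures, in which fewer cells of a type and less RNA per cell cannot be told apart.

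**Figure D4:**
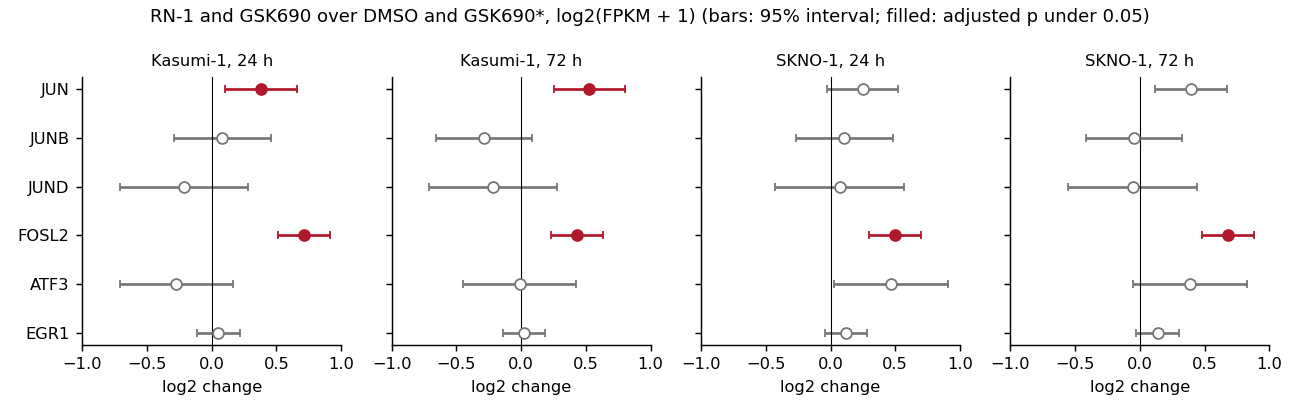
Change with RN-1 and GSK690 over DMSO and GSK690* in log2(FPKM + 1) (x axis) for the 6 tested members in the 4 sets, with 95% intervals and filled points where the adjusted p was under 0.05. FOSL2 is filled in all 4 sets and JUN in both Kasumi-1 sets, and the intervals of JUNB, JUND and EGR1 include 0 in each.

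The other JUN genes were abundant and did not pass in any set by limma (0 of 8 tests at an unadjusted p under 0.05). JUNB, which in many cells opposes JUN in proliferation, had 9.46 to 11.8 FPKM with the inhibitors and 7.05 to 11.7 FPKM in controls of Kasumi-1 at 24 h, and the log2 differences over the 4 sets ran between -0.29 and 0.11. JUND, which is expressed steadily in resting cells, differed by -0.22 to 0.071 on the log2 scale. The first RN-1 library of Kasumi-1 at 72 h stood apart for JUNB, with 17.6 FPKM against 11.1 to 11.7 in the other 3 inhibitor libraries. The 95% intervals for JUND reached -0.71 in Kasumi-1 and 0.57 in SKNO-1, and changes up to those sizes lie within the intervals.

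FOS, the founding AP-1 partner of JUN, was low everywhere, between 0.0736 and 1.04 FPKM. In Kasumi-1 at 72 h it had 0.291 and 0.441 FPKM with RN-1 and 0.446 and 0.477 FPKM with GSK690, against 0.232 and 0.253 FPKM with DMSO and 0.221 and 0.262 FPKM with GSK690*. That was the 1 set in which the inhibitor libraries of FOS all lay above the controls, as they did for 15.6% of the genes past the filter in that set. In Kasumi-1 at 24 h, FOS had 0.167 to 0.452 FPKM with the inhibitors and 0.117 to 0.249 FPKM in controls. In SKNO-1 it lay at 0.0736 to 0.229 FPKM with the inhibitors against 0.209 to 0.349 FPKM in controls at 24 h, and at 0.167 to 0.679 FPKM against 0.332 to 1.04 FPKM at 72 h. A fit of all genes without the filter gave log2 differences of 0.18 and 0.19 in Kasumi-1 and -0.12 and -0.070 in SKNO-1, none of which passed (limma adjusted p of 0.281 to 0.848).

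FOSB, a FOS relative known for its stable splice form in neurons, lay between 0.0598 and 0.370 FPKM. In SKNO-1 at 72 h it had 0.111 and 0.228 FPKM with RN-1 and 0.094 and 0.167 FPKM with GSK690, against 0.312 and 0.370 FPKM with DMSO and 0.168 and 0.241 FPKM with GSK690*. DMSO libraries were the highest of that set, and inhibitor and control libraries overlapped through GSK690*. Without the filter, FOSB fell by 0.14 on the log2(FPKM + 1) scale in that set (limma adjusted p = 0.0439) and by 0.087 in the average over the 4 sets (limma adjusted p = 0.00338). With the filter, 4.16% and 28.1% of all tested genes fell there. In SKNO-1 at 24 h the difference of -0.14 had a limma adjusted p of 0.0688. At 72 h in SKNO-1, GSK690* alone differed from DMSO by -0.155. GSK690 differed from GSK690* by -0.091 (limma adjusted p = 0.578) and RN-1 from DMSO by -0.199 (limma adjusted p = 0.103). FOSB lay under the filter, so these values are a description. The FOSB locus overlaps ERCC1 and the JUNB locus overlaps HOOK2 in the deposited annotation, and the sources used here do not state whether strand was used in counting, so reads of such pairs may be shared.

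EGR1 (chromosome 5, 137801178 to 137805004 in hg19), a zinc finger factor of monocyte differentiation, did not pass the test in any single set by limma (0 of 4 tests at an unadjusted p under 0.05). In SKNO-1 at 24 h it had 2.13 and 1.68 FPKM with RN-1 and 2.15 and 1.92 FPKM with GSK690, against 1.74 and 2.01 FPKM with DMSO and 1.55 and 1.65 FPKM with GSK690*. At 72 h it had 4.38 and 4.73 FPKM with RN-1 and 4.13 and 3.91 FPKM with GSK690, against 3.41 and 4.41 FPKM with DMSO and 3.73 and 3.72 FPKM with GSK690*. The groups overlapped both times. The log2 differences were 0.12 and 0.14 in SKNO-1 and 0.052 and 0.021 in Kasumi-1, where EGR1 stayed under 0.446 FPKM. The upper ends of the 95% intervals were 0.28, 0.30, 0.22 and 0.18. At such low levels log2(FPKM + 1) understates a change, so the Kasumi-1 intervals do not bound a fold change tightly. Mean EGR1 in Kasumi-1 was 0.146 FPKM with the inhibitors against 0.105 in controls at 24 h, and 0.300 against 0.278 at 72 h. EGR2, which acts beside EGR1 in macrophage fate in the mouse, was listed at 0 in 10 libraries and reached 0.0742 FPKM, and EGR3 was listed at 0 in 16 libraries and reached 0.0728 FPKM.

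ATF3 varied widely between replicates of SKNO-1. At 24 h it had 2.73 and 0.869 FPKM with RN-1 and 2.74 and 0.669 FPKM with GSK690, against 1.23 and 0.427 FPKM with DMSO and 0.873 and 1.00 FPKM with GSK690*. The first replicate of each inhibitor was high and the second lay among the controls. The log2 difference of 0.47 had an unadjusted p of 0.0378 and did not pass (limma adjusted p = 0.178), but with the replicate term the limma adjusted p was 0.0404. Without the second GSK690 library the adjusted p was 0.0131 and without the second RN-1 library 0.0272. At 72 h in SKNO-1 ATF3 had 1.81 to 2.36 FPKM with the inhibitors against 0.854 to 1.95 FPKM in controls (log2 difference 0.39, limma adjusted p = 0.251). In Kasumi-1 the differences were -0.27 and -0.011. The difference between the lines at 24 h was -0.74 on the log2 scale, with an unadjusted p of 0.0213 and a limma adjusted p of 0.346.

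Differences in response between times and lines were tested as interaction terms, and no member passed by limma (2 of 24 tests at an unadjusted p under 0.05), where 0.202% (72 h minus 24 h in Kasumi-1), 0% (the same in SKNO-1), 1.12% (Kasumi-1 minus SKNO-1 at 24 h) and 3.47% (the same at 72 h) of tested genes did. For FOSL2, the 72 h minus 24 h difference of the change in Kasumi-1 was -0.29 (95% interval -0.57 to -0.0015, unadjusted p = 0.0489, limma adjusted p = 0.947). The Kasumi-1 minus SKNO-1 difference for FOSL2 was 0.21 at 24 h and -0.25 at 72 h, with limma adjusted p of 0.672 and 0.420.

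GSK690* is an isomer of GSK690, and RN-1 is another compound that inhibits KDM1A irreversibly. By the titles, all 3 compounds were given at the same dose and for matched times. Against its isomer, GSK690 raised FOSL2 by 0.65 on the log2 scale in Kasumi-1 at 24 h (95% interval 0.37 to 0.94, limma adjusted p = 0.00758), by 0.54 in Kasumi-1 at 72 h (95% interval 0.25 to 0.82, limma adjusted p = 0.0147) and by 0.55 in SKNO-1 at 72 h (95% interval 0.26 to 0.83, limma adjusted p = 0.0293). The difference in SKNO-1 at 24 h was 0.45 and did not pass (95% interval 0.17 to 0.73, limma adjusted p = 0.122), but with the replicate term it did (limma adjusted p = 0.0394, where 5.35% of all tested genes passed). That is 1 member called in each of 3 sets, where 3.94%, 9.75% and 2.83% of all tested genes were, and 0 in the fourth, where 1.63% were. These pairwise calls rest on 2 libraries against 2, and single libraries ended them: 2 of 4 fits without 1 library lost the call in Kasumi-1 at 24 h, 3 of 4 in Kasumi-1 at 72 h and 3 of 4 in SKNO-1 at 72 h.

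Against DMSO, RN-1 raised FOSL2 by 0.78 in Kasumi-1 at 24 h (95% interval 0.49 to 1.06, limma adjusted p = 9.52e-04), by 0.55 in SKNO-1 at 24 h (95% interval 0.26 to 0.83, limma adjusted p = 0.0337) and by 0.81 in SKNO-1 at 72 h (95% interval 0.53 to 1.1, limma adjusted p = 8.07e-04). In Kasumi-1 at 72 h the difference was 0.32 and did not pass (95% interval 0.034 to 0.60, limma adjusted p = 0.138). All tested genes passed at 9.08%, 2.25% and 3.47% in the 3 sets where FOSL2 did and at 12.1% in Kasumi-1 at 72 h. The SKNO-1 call at 24 h was lost in each of 4 fits without 1 library, and the other 2 calls held in all of theirs. JUN did not pass in any of these 8 pairwise comparisons in the limma fit of group means (4 at an unadjusted p under 0.05). With the replicate term it passed for GSK690 against GSK690* in Kasumi-1 at 24 h (limma adjusted p = 0.0285, where 12.7% of all tested genes passed) and for RN-1 against DMSO in SKNO-1 at 72 h (limma adjusted p = 0.0151, where 8.97% passed). JUN also passed with that term in Kasumi-1 at 72 h, for GSK690 against GSK690* (limma adjusted p = 0.00718) and RN-1 against DMSO (limma adjusted p = 0.00865). The replicate numbers were not taken as pairing in that set, so those gains of JUN are not read as calls. Its log2 differences were 0.31 and 0.52 with RN-1 and 0.45 and 0.54 with GSK690 in Kasumi-1 at the earlier and later time, and 0.34 and 0.53 with RN-1 and 0.15 and 0.26 with GSK690 in SKNO-1.

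No member passed between the isomer and the vehicle, or between RN-1 and GSK690. GSK690* against DMSO gave no call among 24 tests of members in limma (1 at an unadjusted p under 0.05), where 0% of all tested genes passed in each set. The 1 test was JUN in SKNO-1 at 72 h, 0.43 higher on the log2 scale (95% interval 0.038 to 0.82, unadjusted p = 0.0330, limma adjusted p = 1). RN-1 against GSK690 likewise gave no call among 24 tests in limma (1 at an unadjusted p under 0.05), where 0%, 0.00841%, 0% and 0% of all tested genes passed. That test was FOSL2 in Kasumi-1 at 72 h, -0.35 on the log2 scale (95% interval -0.63 to -0.065, unadjusted p = 0.0184, limma adjusted p = 0.676). The intervals of the RN-1 against GSK690 difference for FOSL2 in the other sets were -0.24 to 0.33 in Kasumi-1 at 24 h, -0.24 to 0.33 in SKNO-1 at 24 h and -0.20 to 0.37 in SKNO-1 at 72 h, and a failed test does not show that the compounds act alike.

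**Figure D5:**
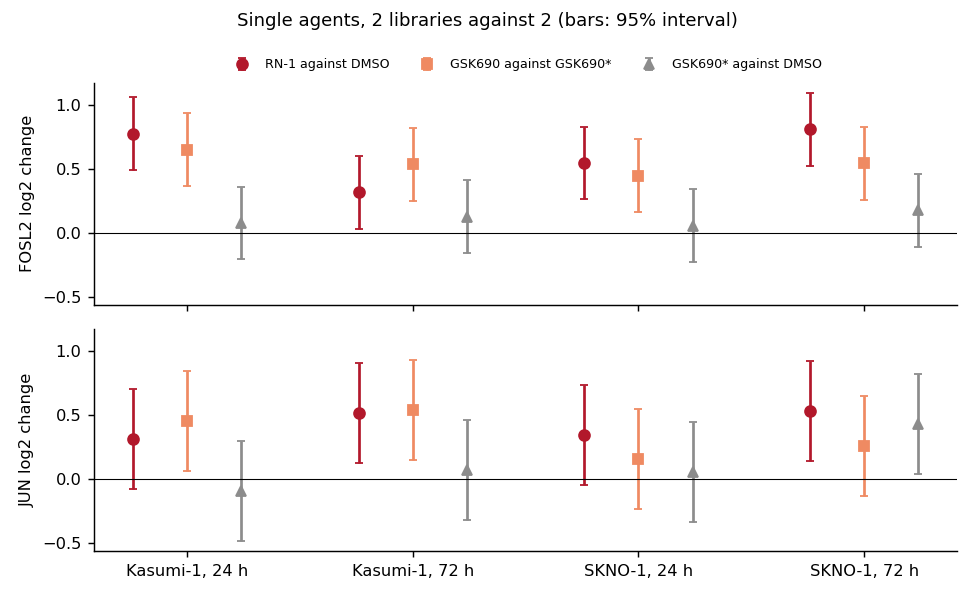
Change of FOSL2 (upper panel) and JUN (lower panel) in log2(FPKM + 1) (y axis) for RN-1 over DMSO, GSK690 over GSK690* and GSK690* over DMSO in each set (x axis), with 95% intervals from 2 libraries against 2. The FOSL2 intervals of both inhibitors lie above 0 in every set and those of the isomer include 0, and the JUN interval of the isomer in SKNO-1 at 72 h lies above 0.

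Between 72 and 24 h, controls had higher values of several members, but the whole table shifted too: the median of all tested genes was 0.22 higher at 72 h in Kasumi-1 and 0.20 higher in SKNO-1, against 0.012 and 0.0027 after quantile normalization and 0.013 and 0.015 after scaling by the median of ratios. In Kasumi-1, 4 of 6 members passed (JUNB 0.62, JUND 0.66, FOSL2 0.53 and EGR1 0.21 on the log2 scale), where 52.1% of tested genes did. After either scaling 1 of them did, and it was not the same gene: EGR1 passed after quantile normalization, where FOSL2 had a limma adjusted p of 0.0672, and FOSL2 passed after the median of ratios, where EGR1 had 0.124. No member of that line passed under both scalings. EGR1 lay at 0.0586 to 0.158 FPKM at 24 h and at 0.241 to 0.312 FPKM at 72 h in Kasumi-1 controls. It was tested there only because it reached 1 FPKM in SKNO-1. In SKNO-1, 5 of 6 passed (JUN 0.40, JUNB 0.85, JUND 0.76, FOSL2 0.24 and EGR1 0.81), where 45.2% of tested genes did, and 2, JUNB and EGR1, did so after either scaling. In SKNO-1 EGR1 controls averaged 3.82 ± 0.421 FPKM at 72 h and 1.74 ± 0.197 FPKM at 24 h (SD, n = 4 each), and the log2 difference of 0.81 had a limma adjusted p of 4.21e-07.

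The other genes of the pathway were read from lists of known names. Of 6 tested genes among 8 other AP-1 relatives, BATF, a zipper protein that pairs with JUN in lymphocytes, fell by 0.39 in SKNO-1 at 24 h (limma adjusted p = 0.0497) and by 0.59 at 72 h (limma adjusted p = 0.00287). In those sets 3.44% and 4.16% of all tested genes fell. The 24 h value lies close to the threshold and was not examined in the other fits. None of the 6 passed in Kasumi-1 by limma (1 of 12 tests at an unadjusted p under 0.05). In the average over the 4 sets, 1 of the 6 fell, where 28.1% of all tested genes did. Of 3 tested genes among 4 EGR relatives and EGR corepressors, none passed in any set by limma (1 of 12 tests at an unadjusted p under 0.05). Of 23 kinases and factors that act upstream of FOS, JUN and EGR1, 4 rose in Kasumi-1 at 24 h, 4 at 72 h, 1 in SKNO-1 at 24 h and 2 at 72 h, where 9.69%, 13%, 5.64% and 6.91% of all tested genes rose, and none fell in a single set by limma (5 of 92 tests at an unadjusted p under 0.05 with a lower value). In the average over the 4 sets, 4 of the 23 rose and 4 fell, where 22.7% and 28.1% of all tested genes did. The genes that rose in single sets included MAP2K1, the kinase that activates ERK (0.38, 0.53 and 0.25 in the first 3 sets), and ELK3, an ETS partner of serum response factor (0.44 and 0.51 in Kasumi-1 and 0.36 in SKNO-1 at 72 h). They also included MEF2C (0.44 in Kasumi-1 at 24 h), RPS6KA1 (0.33 in Kasumi-1 at 72 h) and MAPK14, the p38 kinase (0.27 in SKNO-1 at 72 h). The median change of the 23 lay between -0.049 and 0.052.

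Of 26 tested genes among 29 other immediate early genes, 7 rose and 3 fell in Kasumi-1 at 24 h, 9 rose and 4 fell at 72 h, 4 rose and 0 fell in SKNO-1 at 24 h, and 5 rose and 1 fell at 72 h. In these sets 9.69%, 13%, 5.64% and 6.91% of all tested genes rose, and 11.2%, 12.7%, 3.44% and 4.16% fell. KLF10, a TGF-beta inducible zinc finger gene, rose in all 4 sets (0.58, 0.99, 1.64 and 1.64). BTG1 and ZFP36L1 rose in Kasumi-1 at 24 h (0.61 and 0.57), ZFP36L1 also at 72 h (0.82), and IER3 rose in SKNO-1 (1.15 and 1.35). BTG1 rose in SKNO-1 at 24 h (0.39) and BTG2, an antiproliferative gene, at 72 h (0.61), while ARC fell by 0.88 in Kasumi-1 at 72 h. The medians of the list were 0.089, 0.088, 0.12 and 0.061. In the average over the sets 13 rose and 5 fell, where 22.7% and 28.1% of all tested genes did.

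Of 15 tested MAPK phosphatases and feedback inhibitors among 17 listed, 2 rose in Kasumi-1 at 24 h, 5 rose and 2 fell at 72 h, and 4 rose in SKNO-1 at each time. In these sets 9.69%, 13%, 5.64% and 6.91% of all tested genes rose, and 11.2%, 12.7%, 3.44% and 4.16% fell. DUSP10, a phosphatase of JNK and p38, rose by 0.40 and 0.69 in Kasumi-1, and SPRED1 by 0.25 at 24 h. DUSP4 rose by 0.50 in Kasumi-1 at 72 h and by 0.60 and 0.97 in SKNO-1, and DUSP1 rose by 0.55 and 0.68 in SKNO-1. ETV5, an ETS factor that ERK signalling induces, rose by 0.64 in Kasumi-1 at 72 h and by 0.53 and 0.65 in SKNO-1. The medians of the list were -0.0020, 0.14, 0.020 and 0.043. In the average over the sets 7 rose and 4 fell, where 22.7% and 28.1% of all tested genes did.

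Of 9 tested genes among 14 textbook AP-1 targets, 4 rose in Kasumi-1 at 24 h, 4 at 72 h and 3 in SKNO-1 at each time, and none fell by limma (1 of 36 tests at an unadjusted p under 0.05 with a lower value). VIM, the intermediate filament vimentin, rose in all 4 sets (0.83, 1.41, 1.21 and 1.2), as did CD44, the hyaluronan receptor (0.71, 1.04, 0.57 and 0.64). IL8, a neutrophil chemokine, rose in Kasumi-1 (1.46 and 0.75) and PLAUR, the urokinase receptor, in SKNO-1 (0.56 and 0.64). The medians of the list were 0.57, 0.42, 0.29 and 0.29, beside -0.014 to -0.022 for all tested genes. In the average over the sets 6 rose and 0 fell, where 22.7% and 28.1% of all tested genes did. In the single sets 9.69%, 13%, 5.64% and 6.91% of all tested genes rose. The list was chosen with earlier results of these data known, so it is no independent readout of JUN and FOSL2. The listed genes have many regulators besides AP-1.

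Markers of other cell states moved in the same libraries. Of 6 tested monocyte and macrophage markers among 9 listed, 4 rose in each set and none fell by limma (0 of 24 at an unadjusted p under 0.05), led by LYZ (3.01, 2.48, 1.27 and 1.39), CD86 (2.25, 1.64, 1.73 and 2.0), CSF1R (1.43 in Kasumi-1 at 24 h), ITGAM (1.48 in Kasumi-1 and 1.54 in SKNO-1 at 72 h) and FCGR1A (0.91 in SKNO-1 at 24 h). Their summed level was 166 to 218 FPKM with the inhibitors against 51.8 to 81.5 FPKM in controls of Kasumi-1 at 24 h, 106 to 153 against 54.3 to 67.6 at 72 h, 119 to 179 against 49.8 to 78.5 in SKNO-1 at 24 h, and 162 to 201 against 62 to 83.3 FPKM at 72 h. Beside the 4 markers that rose in each set, 9.69%, 13%, 5.64% and 6.91% of all tested genes did so. CD14 stayed at or under 0.262 and CD163 at or under 0.385 FPKM in every library. The part of these markers in the change of JUN and FOSL2 was not tested.

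Heat shock and unfolded protein genes were lower with the inhibitors mainly in the average over the 4 sets and in Kasumi-1 at 24 h. Of 12 tested, 1 rose and 5 fell in Kasumi-1 at 24 h, 1 rose and 1 fell at 72 h and in SKNO-1 at 24 h, and 1 rose in SKNO-1 at 72 h, and in the average over the 4 sets 2 rose and 8 fell, where 22.7% and 28.1% of all tested genes did. In the single sets 9.69%, 13%, 5.64% and 6.91% of all tested genes rose, and 11.2%, 12.7%, 3.44% and 4.16% fell. The medians of the list were -0.19, -0.084, -0.14 and -0.16. Their summed level was 1435 to 1499 FPKM with the inhibitors against 1668 to 1806 FPKM in controls of Kasumi-1 at 24 h, 1318 to 1452 against 1468 to 1543 at 72 h, 1305 to 1500.0 against 1521 to 1580 in SKNO-1 at 24 h, and 1438 to 1516 against 1527 to 1712 FPKM at 72 h. Each inhibitor library lay below each control of its set in these sums. Single tested genes did so at 18.2%, 13%, 8.37% and 6.67% in those sets. The sums lean on the most abundant genes, as HSPA8 alone reached 958 FPKM. HSPH1 and HSPA1A fell by 0.40 and 0.38 in Kasumi-1 at 24 h, HSPA8 fell by 0.26 in Kasumi-1 at 72 h and by 0.20 in SKNO-1 at 24 h, DDIT3, the stress factor CHOP, rose by 0.35 and 0.39 in Kasumi-1, and HSPA6 rose by 1.25 and 1.28 in SKNO-1. Of 8 genes that mark t(8;21) cells, CD34 rose in all 4 sets (0.73, 1.41, 1.02 and 1.53), as did CD33 (0.32, 0.71, 0.34 and 0.42), and KIT fell by 0.38, 0.52 and 0.36 in the first 3 sets. Of the 2 tested markers of adherent and other cells, NKG7 rose by 0.98 in Kasumi-1 at 72 h.

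Likeness between genes was measured as Pearson r over the 32 libraries of log2(FPKM + 1) after the mean of each set was removed, which leaves the agents and the replicates, and is given as a description. JUN was most like TRIOBP (0.927), CCM2 (0.910), PPM1F (0.904), SUN2 (0.895) and FAM117A (0.894). Among the members, FOSL2 had an r of 0.797 with JUN and FOSB one of -0.459, and JUNB and JUND had 0.250 and 0.265. EGR1 was most like TUBB4A (0.713), GALNT6 (0.708), ARAP1 (0.688), C2CD2L (0.678) and CCDC88C (0.673), and FOS was most like AP5B1 (0.684), FUK (0.664), ACBD4 (0.662), CDO1 (0.655) and SCG5 (0.641). The points share libraries and treatment, and FOS is close to the lower limit of detection, so its values carry more noise.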

How the data were processed

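The authors deposited FPKM values per gene and library, with a table of gene symbols and loci. Per the submitters' processing notes, TopHat 1.4.1, Cufflinks and hg19 were used, with no role given for each. The annotation release, the strand setting and any further scaling are not given in the sources used here. Per the labels' protocols, RNA was isolated with Trizol or RNeasy Plus, with no map of kit to library.

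The filter on low values asked for 1 FPKM or more in 2 or more libraries (11890 of 23073 genes), and 102 missing values, none in a member, stayed missing. Values were taken as log2(FPKM + 1), a scale that understates the change of low genes, and fitted over all 32 libraries with limma 3.58.1 in R 4.3.3 (16 group means, a trend of variance on mean, 16 residual and 5.23 prior degrees of freedom). Each 2-sided p was adjusted over all tested genes of its comparison (Benjamini-Hochberg), and an adjusted p under 0.05 counted as passed. The fit was tested on simulated data in which the noise was independent between libraries. Such data lack the correlation of replicate differences given below, so the simulation does not cover it. Tables were made with Python 3.11.15, pandas 2.3.3 and numpy 2.4.6, and drawn with matplotlib 3.10.9.

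The members and the 10 gene lists were chosen with earlier results of these data known. From each list, the 3 (or fewer) passing genes that changed most are named per set, and for likeness the 5 genes with the highest r. The replicate numbers were taken as pairing in the sets where the difference between replicates 1 and 2 correlated above 0.1 for each pair of groups, a check on the data, as the labels name no shared batch or day: r was 0.133 to 0.45 in Kasumi-1 at 24 h, 0.294 to 0.525 in SKNO-1 at 24 h and 0.145 to 0.697 in SKNO-1 at 72 h (6 of 6 pairs each), against 0.0432 to 0.481 in Kasumi-1 at 72 h (4 of 6). The value of 1 listed marker gene is not reported here. Library depth is unknown, so no counting interval was computed. Alternatives were a pseudocount of 0.1, no filter, quantile normalization, median of ratios, a fit on a set's 8 libraries alone, a replicate block (a term for replicate number within each set), a covariate for library name prefix, GSK690* left out of the controls, and each library left out in turn.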

Additional observations from a re-analysis of the deposited data

Results flagged for a closer look

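Each member was looked at in 8 groups of 4 libraries (80 groups in all) for a library far from the other 3 of its group, by the gap to its nearest neighbour over the range of the group, held against Dixon's critical value for 4. Chance gives about 1 such library in 20 groups, and 6 were found. For JUNB, the first RN-1 library of Kasumi-1 at 72 h had 17.6 FPKM, against 11.1 to 11.7 in the other 3 inhibitor libraries. The other 5 were in genes near 0, where the other 3 libraries of the group were listed at 0, so that any value above 0 would have been counted whatever its size. EGR2 had 0.0349 FPKM in the first GSK690 library of Kasumi-1 at 24 h. EGR3 had 0.00763 FPKM in that same library, 0.0178 FPKM in the second DMSO library of Kasumi-1 at 24 h, 0.0728 FPKM in the first RN-1 library of SKNO-1 at 24 h and 0.00654 FPKM in the second DMSO library of SKNO-1 at 24 h.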

How the results depend on the processing

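FOSL2 kept its call with the inhibitors in all 4 sets in every fit without 1 library (8 per set) and under every other alternative, except SKNO-1 at 24 h fitted alone. JUN in Kasumi-1 at 72 h kept its call in all of these. Of the 6 tested members, the number called in Kasumi-1 at 24 h was 2, and 1 with a pseudocount of 0.1, with no filter, with quantile normalization and without GSK690* among the controls, JUN being the gene lost (adjusted p of 0.114, 0.0782, 0.0663 and 0.167 by limma). In SKNO-1 at 24 h the number was 1, and 0 in the set alone. At 72 h it was 1, and 2 with no filter, where FOSB is tested too and was the gene added, and 2 without GSK690* among the controls, where JUN was added. RN-1 against DMSO in SKNO-1 gave 1 at 24 h, but 0 with no filter, with quantile normalization and in the set alone, and 1 at 72 h, but 0 in the set alone. GSK690 against GSK690* in SKNO-1 at 72 h gave 1, but 0 with quantile normalization and in the set alone. Kasumi-1 against SKNO-1 controls at 72 h gave 3 (JUN, FOSL2 and EGR1), where 70.8% of all tested genes passed. EGR1 passed the filter only through SKNO-1, so its part in that count is a description. With no filter the number was 5, FOS and FOSB being added (limma adjusted p of 0.0122 and 0.0321), both at or under 1.04 FPKM in every library. ATF3 joined the 3 with quantile normalization (limma adjusted p = 0.0490), with both sets alone (0.00525) and with the replicate block (0.0210). For 72 h against 24 h, Kasumi-1 controls gave 4, and 1 with quantile normalization or median of ratios, and SKNO-1 controls gave 5, and 2 with either scaling and 3 in the set alone. The cause was not tested in any of these.

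Over the fits without 1 library, the number of members called ran from 1 to 2 in Kasumi-1 at 24 h and in SKNO-1 at each time. For GSK690 against GSK690* it ran from 0 to 1 in both Kasumi-1 sets and in SKNO-1 at 72 h, and for RN-1 against DMSO in SKNO-1 at 24 h it was 0 throughout. The Kasumi-1 minus SKNO-1 difference of the response at 24 h gave 0 to 1, ATF3 being called without the second GSK690 library of SKNO-1. For 72 h against 24 h the numbers were 1 to 4 in Kasumi-1 and 2 to 5 in SKNO-1.

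With a replicate block, which left each log2 difference where it was, the number of members called was 2 in SKNO-1 at each time (1 without the block), the genes gained being ATF3 at 24 h and JUN at 72 h. For GSK690 against GSK690* it was 2 in Kasumi-1 at 24 h (1 without), with JUN gained (limma adjusted p = 0.0285), where 12.7% of all tested genes passed. It was 1 in SKNO-1 at 24 h (0 without), with FOSL2 gained, where 5.35% passed. For RN-1 against DMSO it was 2 in SKNO-1 at 72 h (1 without; JUN gained), where 8.97% passed. The block also entered the fit for Kasumi-1 at 72 h, where the replicate numbers were not taken as pairing (4 of 6 pairs above 0.1). The median r of that set was 0.336, beside 0.3 in Kasumi-1 at 24 h and 0.382 and 0.337 in SKNO-1, so the cut turned on the lowest pairs. In Kasumi-1 at 72 h JUN was gained for GSK690 against GSK690* (limma adjusted p = 0.00718) and for RN-1 against DMSO (limma adjusted p = 0.00865), and these 2 gains are not read as calls. No called member lost its call under the block. All genes called with the inhibitors numbered 3733 with the block in Kasumi-1 at 24 h (2479 without), and 2306 and 2715 in SKNO-1 (1080 and 1316 without).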
